A study of Mus musculus with 2 samples.

Results

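The 37 genes described here encode the machinery with which the endoplasmic reticulum (ER) folds and inspects proteins, together with the sensors of the unfolded protein response. They were chosen by gene symbol, as ER chaperones, disulfide isomerases, stress sensors, translocation genes and ER-associated degradation genes, and the rule uses no measured value. All 37 were found among the 14732 gene symbols listed for at least 1 of 2 RNA sequencing libraries. All 37 also reached an RPKM of 1 in either library, the limit for calling a gene expressed, which 9925 genes reached.

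Both libraries came from OT-I transgenic C57BL/6 mice of 6 to 8 weeks, whose CD8+ T cells carry a receptor for the OVA peptide SIINFEKL. CD8+ T cells of spleen and lymph nodes were activated with 2.5 ng/mL of the peptide and 10 U/mL IL-2 for 24 h, and were then transduced with the retroviral vector RVKM. In the Eomes-overexpressing culture the vector carried *Eomes*, a T-box transcription factor of CD8+ T cells, and in the control culture it was empty. Cells positive for human CD2 (hCD2), which both vectors encode, were sorted 48 h later, and 40000 cells per well received the same peptide and IL-2 again for 3 days before total RNA was taken. Both cultures thus share the transgenic receptor, the vector with its hCD2 cassette and 2 rounds of antigen, and the *Eomes* level of the overexpressing cells is set by a viral vector rather than by the cells' own gene. Each condition is 1 culture and 1 library. Differences between the conditions therefore have no replicate check, and no test between them is given.

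RPKM is the number of reads of a gene scaled to the length of its transcript and to the reads of the library, so levels can be compared between genes. Where a pair of values is given below, the control value comes before that of the Eomes-overexpressing cells (written "with Eomes"). Steps among the lowest values put the depth at about 19300000 reads for control and 18900000 reads for Eomes-overexpressing cells, read from 78 and 88 genes. *Eomes* itself was 52.5-fold higher in the Eomes-overexpressing library (2.47 and 129.6), as the labels say. Intervals given below are exact binomial intervals (Clopper-Pearson, 95%) on approximate reads. Counting error alone is covered by them, and they compare these 2 libraries. Since RNA was taken from whole cultures, a lower number of cells of a type and less RNA per cell cannot be told apart.

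Secreted and membrane proteins enter the ER through the Sec61 channel, are bound by lumenal chaperones such as BiP, acquire sugars and disulfide bonds, and leave for the Golgi once folded. Proteins that fail to fold are pulled back into the cytosol and degraded by the proteasome. When unfolded proteins accumulate, the sensors IRE1, PERK and ATF6 start the unfolded protein response. IRE1 removes an intron from the *Xbp1* mRNA so that an active transcription factor is made, PERK slows translation, and the cleaved ATF6 enters the nucleus, where it and XBP1 raise chaperone genes. Activated T cells and plasma cells use this machinery to support secretion.

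Many of the chaperone genes shared a short promoter sequence that ATF6 and XBP1 are known to use together with the factor NF-Y. This sequence is the ER stress response element (ERSE). It consists of CCAAT and CCACG with 9 free bases between them and was searched on both strands of 300 bases around each transcription start (250 before and 50 from the start on, RefSeq, GRCm38.p6). A promoter was matched for 31 of the 37 genes, all but *Hyou1*, *Manf*, *Atf6*, *Sec61a1*, *Ssr2* and *Derl1*, and 8 of these 31 (25.8%) held the element. Over all 32851 promoters of the same length the share was 0.119%, and over 8171 expressed genes with a promoter it was 0.184%. The rule chose chaperone genes, which ATF6 and XBP1 are known to raise, so these shares are not independent of the choice. The 9 sites are shown because they mark the genes discussed together below. Capitals mark the element, lower case letters are the 6 bases on either side, and each line reads 5′ to 3′ on the strand of the gene.
*Hspa5*, chr2:34772019-34772049, plus strand: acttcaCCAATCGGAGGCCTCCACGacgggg
*Hsp90b1*, chr10:86705632-86705662, minus strand: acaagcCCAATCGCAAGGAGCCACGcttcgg
*Hsp90b1*, chr10:86705527-86705557, minus strand, element reversed: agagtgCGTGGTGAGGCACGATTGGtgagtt
*Dnajc3*, chr14:118937821-118937851, plus strand: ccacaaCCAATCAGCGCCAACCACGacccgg
*Pdia6*, chr12:17266485-17266515, plus strand: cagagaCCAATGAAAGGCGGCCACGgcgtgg
*Canx*, chr11:50325794-50325824, minus strand: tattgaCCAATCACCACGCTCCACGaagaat
*Syvn1*, chr19:6046526-6046556, plus strand: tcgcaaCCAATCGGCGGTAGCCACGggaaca
*Creld2*, chr15:88819514-88819544, plus strand, element reversed: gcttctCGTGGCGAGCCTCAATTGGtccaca
*Calr*, chr8:84847069-84847099, minus strand, element reversed: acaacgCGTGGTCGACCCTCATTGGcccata
The element of *Syvn1* lay closest to its start, from 44 to 26 bases upstream, and the farther copy of *Hsp90b1* lay 212 to 194 bases upstream. Distances are from the RefSeq start, and the annotated span of *Hspa5* given further on, from GENCODE, begins upstream of its element.

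Related elements were found in fewer of the 31 genes, and their sites are shown in the same way. ERSE-II, which is ATTGG and CCACG with 1 free base between them, was found in *Dnajb11* and *Herpud1* (6.45%, against 0.0365% of all promoters and 0.0979% of expressed genes). The core TGACGTG of the unfolded protein response element, which XBP1 is known to bind, was found in *Hspa5* and *Vcp* (6.45%, against 2.01% of all promoters and 3.61% of expressed genes).
*Dnajb11*, chr16:22857846-22857868, plus strand: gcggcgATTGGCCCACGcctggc
*Herpud1*, chr8:94386371-94386393, plus strand: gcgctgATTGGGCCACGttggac
*Hspa5*, chr2:34771927-34771945, plus strand: tagcaaTGACGTGagttgc
*Vcp*, chr4:43000609-43000627, minus strand: gccaatTGACGTGgcgtta
The letters TCACACC, the core that T-box factors such as Eomes are known to bind, stood in 3 of the 31 promoters, those of *Derl2*, *Hsp90b1* and *Ssr4* (9.68%, against 3.98% of all promoters and 4.04% of expressed genes). The CCAAT box alone, which lies inside ERSE and overlaps ERSE-II when read on the other strand, stood in 25 of the 31 (80.6%, against 37.4% and 43.7%). Such matches describe the letters in these windows and not binding.

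None of the 37 genes differed by more than 1.5-fold between the libraries. Past that limit lay 2.46% of the 9925 expressed genes in the higher and 5.19% in the lower direction in Eomes-overexpressing OT-I cells. At a smaller limit, a log2 ratio of 0.32 in size, 4 of the 37 genes were higher (*Hsp90b1*, *Sec63*, *Canx* and *Pdia3*), where 10.7% of expressed genes were, and 1 was lower (*Wfs1*), where 12% were. The median log2 ratio of the 37 genes, Eomes-overexpressing over control, was 0.08, beside -0.0037 for all expressed genes. Of the 37, 27 had a log2 ratio above 0 and 10 under 0, beside 49.2% and 50.5% of expressed genes. The interval for counting error lay above 0 for 17 genes, under 0 for 4 (*Xbp1*, *Ssr4*, *Edem1* and *Wfs1*) and spanned 0 for 16. Over the 9903 expressed genes with a length, 25.9% had an interval above 0, 25.2% under 0 and 48.9% spanning 0. Intervals narrow with abundance, and at a mean RPKM of at least 10 the shares were 28.3%, 28.6% and 43.1%, where 33 of the 37 genes had 17 above 0, 3 under 0 and 13 spanning 0. Without replicates, an interval that excludes 0 says only that the 2 libraries differed by more than the counting of reads.

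**Figure D1:**
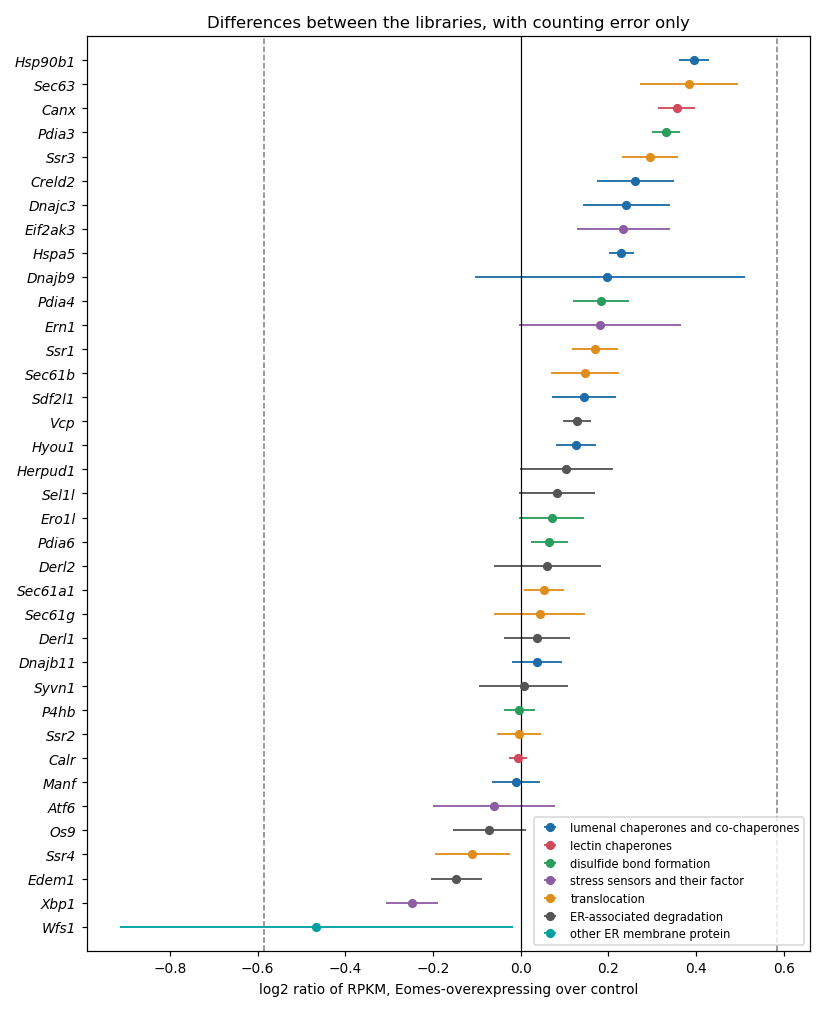
The log2 ratio of RPKM, Eomes-overexpressing over control, is on the x axis for each of the 37 genes in descending order, coloured by role. Bars are 95% intervals for counting error, the solid line is at 0 and dashed lines mark 1.5-fold. Points run from -0.47 (*Wfs1*) to 0.40 (*Hsp90b1*) and none lies outside the dashed lines.

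Most of this machinery was abundant in both libraries. In control cells, 32 of the 37 genes lay above the median level of expressed genes (RPKM 12.8), and 17 were among the highest 10% (RPKM of at least 91.9). *Calr* was the most abundant and *Wfs1* the least, at 918 and 1.41. The summed RPKM of the 37 genes was 4617 in control and 4956 with Eomes, 0.822% and 0.902% of all listed RPKM. The order of their levels was nearly the same in both libraries (Spearman's rho 0.993 across the 37 genes, which are not replicates). Log2 ratios between -0.50 and 0.43 held the central 95% of the 5671 genes whose mean RPKM reached 10. Of the 37 genes, 33 reached that level, and none of these 33 lay outside that range.

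**Figure D2:**
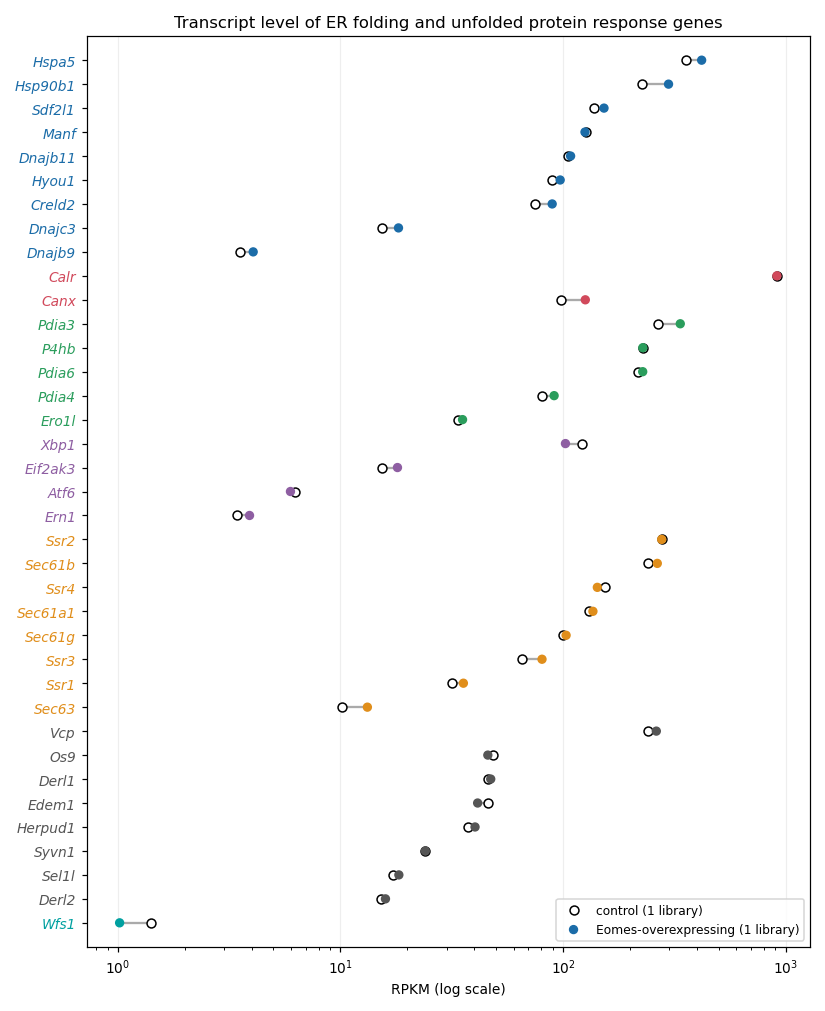
RPKM on a log scale is on the x axis for each of the 37 genes, grouped and coloured by role, with open circles for the control library and filled circles for the Eomes-overexpressing library. Levels span from 1.02 (*Wfs1*) to 918 (*Calr*), and the circles of a gene lie close together compared with the distances between genes.

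The 9 lumenal chaperones and co-chaperones had the highest median log2 ratio of the role groups with more than 2 genes, at 0.20. That median is the value of *Dnajb9*, described below. It was 0.16 after centring on GC content, that is, after the median of expressed genes of similar GC content was subtracted. Of the 9 genes, 8 were above 0 before centring, where 49.2% of expressed genes were. *Hspa5* encodes BiP, the Hsp70 of the ER and the chaperone that holds the sensors inactive (mm10 chromosome 2, 34771970 to 34777547). Its RPKM was 358 in control and 419.7 with Eomes, a log2 ratio of 0.23 (interval 0.20 to 0.26). *Hsp90b1* encodes GRP94, the Hsp90 of the ER, which folds integrins and Toll-like receptors (chromosome 10, 86690209 to 86705509). At 227 and 298, it had the largest log2 ratio of the 37 genes, 0.40 (interval 0.36 to 0.43). BiP transcripts were 1.58 times as abundant as those of GRP94 in control and 1.41 times as abundant with Eomes. *Creld2*, whose product is a secreted ER stress protein, carries a reversed ERSE. Its RPKM was 74.65 and 89.5, a log2 ratio of 0.26 (0.17 to 0.35).

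The co-chaperones of BiP covered a wide range of levels. *Dnajc3* encodes the ER co-chaperone p58IPK and had an RPKM of 15.45 in control and 18.25 with Eomes. Its log2 ratio was 0.24 (interval 0.14 to 0.34), and 0.06 after centring on GC content. *Dnajb9*, which encodes ERdj4, a known target of XBP1, was at 3.54 and 4.06, a log2 ratio of 0.20 that rests on about 166 and 191 reads (-0.11 to 0.51). *Dnajb11*, encoding ERdj3, was at 106 and 108, and its log2 ratio of 0.04 did not differ from 0 beyond counting error. Thus *Hspa5* exceeded *Dnajb9* by 101-fold in control and 103-fold in Eomes-overexpressing cells, while *Dnajb11* was much nearer to *Hspa5*. *Sdf2l1*, which encodes a partner of ERdj3, had values of 138 and 153 (log2 ratio 0.14, 0.07 to 0.22). For *Hyou1*, which encodes GRP170, a nucleotide exchange factor of BiP, the values were 89.0 and 97.2 (0.13, 0.08 to 0.17). *Manf*, encoding a secreted factor that binds BiP, lay within counting error of 0 at 127 and 126, a log2 ratio of -0.012 that was 0.02 after centring on GC content.

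Calreticulin and calnexin, the lectin chaperones that hold newly glycosylated proteins, went apart. *Calr* (chromosome 8, 84841850 to 84846934) had an RPKM of 918 (control) and 914 with Eomes, and its interval of -0.03 to 0.01 bounds the difference closely. *Canx*, the membrane-bound counterpart (chromosome 11, 50293961 to 50325673), was at 98.5 and 126, a log2 ratio of 0.36 (0.31 to 0.40). *Calr* was therefore 9.32 times as abundant as *Canx* in control and 7.25 times with Eomes. The transcript of *Canx* has a GC content of 42.2% and that of *Calr* of 50%. After centring on GC content the log2 ratios were 0.18 for *Canx* and 0.01 for *Calr*. Both promoters hold an ERSE, reversed in *Calr*.

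Among the 5 genes of disulfide bond formation, *Pdia3* stood at the upper end. It encodes ERp57, the isomerase that works with both lectin chaperones and in MHC class I loading (chromosome 2, 121413775 to 121438687). Its RPKM was 267.5 in control and 336.5 with Eomes (log2 ratio 0.33, 0.30 to 0.36). *Pdia4*, which encodes ERp72, was at 80.4 and 91.3 (0.18, 0.12 to 0.25). The isomerase gene *Pdia6* was at 218 and 228 (0.06, 0.02 to 0.11). *P4hb* and *Ero1l* had intervals that spanned 0, though centring on GC content moved both outside them, to 0.09 and -0.16. The former, which encodes protein disulfide isomerase itself, was at 229 and 228. The latter, encoding the oxidase that recharges it, was at 33.7 and 35.4. Over the 5 genes the median was 0.07, with 4 above 0, where 49.2% of expressed genes were.

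The sensors were low in level compared with most of the chaperones, though the co-chaperone genes *Dnajb9* and *Dnajc3* lay at similar levels. *Ern1*, which encodes IRE1, had an RPKM of 3.45 (control) and 3.91 with Eomes, and *Atf6* was at 6.23 and 5.97. For both, the interval spanned 0. *Eif2ak3*, which encodes PERK (chromosome 6, 70844515 to 70905245), was higher in Eomes-overexpressing cells, at 15.4 and 18.1 (log2 ratio 0.23, 0.13 to 0.34). *Xbp1* went the other way. This gene of the transcription factor downstream of IRE1 (chromosome 11, 5520659 to 5525893) was at 122 in control and 103 with Eomes, a log2 ratio of -0.25 (-0.31 to -0.19), and 16.2% of expressed genes had a lower one. *Xbp1* transcripts were 35.3 times as abundant as those of *Ern1* in control and 26.2 times with Eomes. Values are given per gene, so that spliced and unspliced *Xbp1* cannot be told apart.

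For the 8 translocation genes the median was 0.10, and 6 were above 0, where 49.2% of expressed genes were. The genes of the Sec61 channel were close to 0 or slightly above. *Sec61a1*, which encodes the pore, was at 131 in control and 136 with Eomes (log2 ratio 0.05), *Sec61b* at 239.8 and 265 (0.15, 0.07 to 0.22), and *Sec61g* at 100.3 and 103 (0.04, interval spanning 0). *Sec63* encodes the partner that brings BiP to the channel (chromosome 10, 42761496 to 42832514) and was the second of the 37 genes by log2 ratio, 0.38 (0.27 to 0.50), from an RPKM of 10.1 and 13.2. Its level was far under that of the pore, with *Sec61a1* at 13.0 times *Sec63* in control and 10.3 times with Eomes. After centring on GC content the log2 ratios lay closer together. *Sec63* was then at 0.24, *Sec61b* at 0.22, *Sec61a1* at 0.14 and *Sec61g* at 0.08.

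The genes of the translocon-associated protein (TRAP) complex, which assists the channel with some signal sequences, differed unequally between the libraries, although their products form 1 complex. *Ssr3* was at 65.7 in control and 80.5 with Eomes (0.29, 0.23 to 0.36), and *Ssr1* at 31.75 and 35.7 (0.17, 0.12 to 0.22). *Ssr2* was level at 278.4 and 277.7. *Ssr4* was lower, at 154 and 143 (-0.11, -0.19 to -0.03). The ratio of *Ssr4* to *Ssr3* was thereby 2.35 in control and 1.77 with Eomes. The transcripts of *Ssr1* and *Ssr3* have a GC content of 44.6% and 40.8%, those of *Ssr2* and *Ssr4* of 55.7% and 55.1%, and after the median of expressed genes with similar GC content was subtracted the TRAP genes lay between -0.02 and 0.09.

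The 8 genes of ER-associated degradation had a median log2 ratio of 0.05, and the intervals spanned 0 for 6 of them, as they did for 48.9% of expressed genes. *Vcp*, the AAA ATPase that extracts substrates from the membrane, was the most abundant at an RPKM of 240.2 in control and 263 with Eomes (0.13, 0.10 to 0.16). *Edem1*, encoding a lectin that marks misfolded glycoproteins for disposal, was lower at 45.8 and 41.4 (-0.15, -0.21 to -0.09). The ubiquitin ligase gene *Syvn1* (HRD1) was at 24.0 and 24.1, and its partner *Sel1l* at 17.3 and 18.3. These values leave the ratio of *Syvn1* to *Sel1l* at 1.39 in control and 1.31 with Eomes. *Derl1* was at 46.2 and 47.4 and *Derl2* at 15.3 and 15.95, both genes of membrane proteins of the same ligase complex. *Herpud1*, which encodes a stress-induced adaptor of that complex, was at 37.5 and 40.3. *Os9*, which encodes a lectin that delivers substrates, was at 48.3 and 46.0.

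*Wfs1*, which encodes wolframin, a membrane protein of the ER (chromosome 5, 36966104 to 36989205), had the lowest level and the lowest log2 ratio. It was at 1.41 in control and 1.02 with Eomes, -0.47 with an interval of -0.91 to -0.02. That value rests on about 102 and 74 reads, the fewest of the 37 genes. With 1 added to both values the log2 ratio was -0.25.

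The 8 genes with an ERSE had a median log2 ratio of 0.24, from -0.0058 (*Calr*) to 0.40 (*Hsp90b1*). Of the 8, 7 were above 0, where 49.2% of expressed genes were. The 7 include *Syvn1* at 0.0066, whose interval spanned 0 (-0.09 to 0.11). The 23 matched genes without its exact letters had a median of 0.10, with 17 above 0. Among these 23 are *Dnajb11* and *Herpud1*, which hold ERSE-II, and near matches to ERSE were not searched. After centring on GC content the medians were 0.12 and 0.07. The genes with the element were the more abundant, with a median control RPKM of 158 against 48.3. Outside the 37 genes, 7 expressed genes held the element, and their median log2 ratio was 0.02 (-0.016 after centring on GC content). Among these was *Ero1lb*, the second ER oxidase gene, at 3.74 in control and 4.77 with Eomes (0.35, and 0.20 after centring). *Derl3*, of the derlin family, was at 1.53 and 1.23 (-0.31, interval -1.06 to 0.39), from about 39 and 31 reads. The others were *Hnrnpa3*, *Pan2*, *Adcy3*, *Xlr3b* and *Alg12*, with log2 ratios between -0.20 and 0.27.

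Log2 ratios of expressed genes fell with the GC content of the transcript in these libraries. Across 10 equal groups by GC content, their median was 0.25 in the group of lowest GC content (at most 42.1%) and -0.10 in the group of highest GC content (at least 58.3%). The 37 genes followed the same course. Across them GC content and log2 ratio had a Spearman's rho of -0.50 and a Pearson's r of -0.54, as a description of genes that share the same 2 libraries. The 18 genes with the lowest GC content had a median log2 ratio of 0.18 and the 18 with the highest a median of 0.04. When the median of expressed genes of similar GC content (20 bins) was subtracted, these medians were 0.06 and 0.09. The median of all 37 genes was 0.08 with and without centring, and 29 were then above 0 (49.9% of expressed genes). Single genes moved more. *Hsp90b1* was at 0.25, *Canx* at 0.18, *Pdia3* at 0.26 and *Sec63* at 0.24 after centring, all under 0.32. *Creld2*, at 54.8% GC, was then the highest at 0.37, and *Dnajb9*, at 40.6% GC, went from 0.20 to -0.03. *Ero1l* (-0.16) and *Derl2* (-0.12) likewise turned to values under 0, and *Manf*, *Calr*, *P4hb*, *Ssr2* and *Os9* turned to values above 0, of at most 0.09. The log2 ratio of *Xbp1* was -0.19 and that of *Wfs1* -0.38. The part of GC content in the differences between the libraries was not tested.

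**Figure D3:**
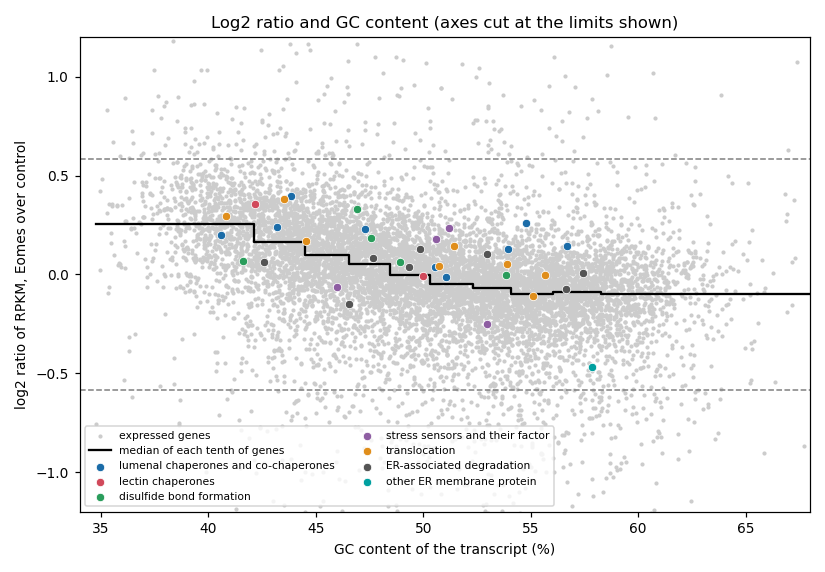
GC content of the transcript in percent is on the x axis and the log2 ratio of RPKM, Eomes-overexpressing over control, on the y axis, with expressed genes as grey points, the 37 genes coloured by role and the black line as the median of each of 10 equal groups of genes. The line goes from 0.25 at the left to -0.10 at the right, the coloured points descend along it, and dashed lines mark 1.5-fold.

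Another 87 genes of the same pathways, in 6 lists, were all expressed. Of these, 1 was more than 1.5-fold higher and 2 were more than 1.5-fold lower, beside 2.46% and 5.19% of expressed genes. The median log2 ratio was 0.05, with 52 above 0, where 49.2% of expressed genes were. After centring on GC content the median was -0.0041, with 42 above 0 and 45 under. *Pdia5*, a further disulfide isomerase gene, was at 2.90 in control and 4.43 with Eomes (0.61, 0.24 to 0.99, and 0.70 after centring on GC content). It was the single gene past 1.5-fold in the list of 23 folding and glycan processing genes, whose median was 0.06. The 2 most abundant genes of that list were lower in Eomes-overexpressing cells. *Ppib*, which encodes the proline isomerase cyclophilin B, was at 297 and 255 (-0.22, -0.28 to -0.16). *Erp29*, encoding an ER chaperone, was at 153 and 128 (-0.25, -0.29 to -0.22).

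The PERK arm and the integrated stress response had a median of -0.10 over 12 genes (-0.026 after centring on GC content). Of the 12 genes, 5 were above 0 and 7 under, beside 49.2% and 50.5% of expressed genes. This list held both genes that were more than 1.5-fold lower. *Atf3*, a stress-induced transcription factor gene, had an RPKM of 33.45 (control) and 13.3 with Eomes (-1.33, -1.48 to -1.18). *Ddit4*, encoding the mTORC1 inhibitor REDD1, was at 64.5 and 40.4 (-0.67, -0.77 to -0.57), and at -0.59 after centring on GC content. *Atf4* itself, whose translation PERK favours, was level at 201 in both libraries (200.6 and 200.8). The asparagine synthetase gene *Asns*, a known ATF4 target, was at 95.6 and 90.0 (-0.09). *Ddit3*, which encodes the death-associated factor CHOP, was low and close in both libraries, at 7.06 and 7.16. Among the other targets, *Trib3* was at 10.1 and 7.02 (-0.53) and *Chac1* at 4.12 and 3.57, its interval spanning 0. Of the genes above 0, *Eif2s1* was at 71.3 and 81.2 (0.19, 0.13 to 0.24) and *Ppp1r15b* at 27.6 and 30 (0.12, 0.05 to 0.19). After centring on GC content these log2 ratios were -0.04 for *Eif2s1* and 0.10 for *Ppp1r15b*.

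The remaining lists stayed within 1.5-fold. For 16 genes of targeting, signal peptidase and translocation the median was 0.10 (0.015 after centring on GC content), with the signal peptidase gene *Sec11c* at 123 in control and 130.1 with Eomes and the signal recognition particle gene *Srp14* at 114 and 103. The 11 oligosaccharyltransferase genes, whose products attach N-glycans, had a median of 0.05. There *Dad1* was at 219 and 228, and *Rpn2* at 208 and 207. Across 16 further genes of ER-associated degradation the median was 0.01 (-0.03 after centring on GC content, with 5 instead of 9 above 0), with *Aup1* at 108.5 and 105 and *Selenos* at 61.9 and 67.8. Processing of ATF6 and related factors had a median of 0.05 over 9 genes (-0.02 after centring, with 4 instead of 5 above 0), with *Scap* at 57.8 and 52.7 and *Atf6b* at 45.6 and 47.1. Of expressed genes, 49.2% were above 0 before centring and 49.9% after it.

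**Figure D4:**
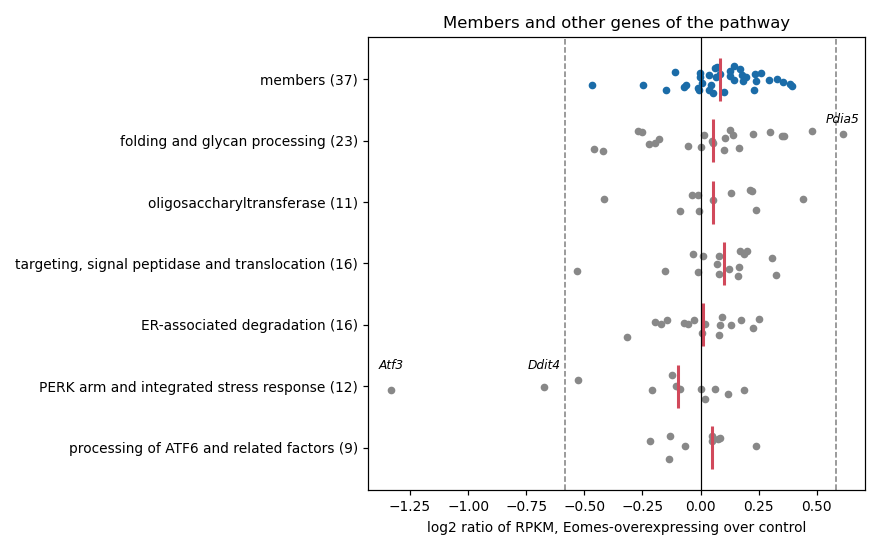
The log2 ratio of RPKM, Eomes-overexpressing over control, is on the x axis for the 37 genes (top, blue) and for 6 further lists of the pathway (grey), with the number of genes in parentheses and red bars at the medians. Vertical spread within a list is for display, and dashed lines mark 1.5-fold. *Pdia5* lies to the right of them, and *Atf3* and *Ddit4* to the left.

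Markers of CD8 T cells were present in both libraries and lower in the Eomes-overexpressing one. All 7 had a log2 ratio under 0, where 50.5% of expressed genes were, though for *Cd247* (83.9 and 80.9) the interval spanned 0. The summed RPKM of the 7 was 1340 in control and 1053 with Eomes, and *Cd8a* was at 182 and 99.1. Plasma cells are rich in the ER genes described here, and 4 of 6 markers of that type were expressed, with a summed RPKM of 93.4 in control and 73.6 with Eomes. *Jchain* was at 13.7 and 4.28, *Sdc1* at 21.87 and 10.98, *Prdm1* at 14.95 and 17.0 and *Irf4* at 42.65 and 41.3, of which the latter pair are also made by activated T cells. *Mzb1* was at 0.22 and 0.06, and *Tnfrsf17* was not listed. Of the B cell markers reported here, *Cd79b* was expressed at 2.79 and 1.56, and *Ms4a1* and *Pax5* were not listed.

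Other cell types had low values. Among 6 markers of macrophages and monocytes 1 was expressed, *Cd68* at 2.68 in control and 4.59 with Eomes, and *Lyz2*, *Csf1r* and *Adgre1* were not listed (sums 2.74 and 4.77). For dendritic cells 2 of 6 were expressed, *H2-DMb2* at 6.37 and 2.12 and *Xcr1* at 1.79 and 1.11 (sums 9.14 and 4.05). For CD4 T cells 1 of 3 was expressed, *Zbtb7b* at 13.8 and 11.6, while *Cd4* was at 0.03 and 0.08. Of 4 markers of NK cells, *Klrb1c* was expressed at 0.31 and 5.74, and *Ncr1* and *Klra8* were not listed (sums 0.40 and 6.10). None of 5 erythroid markers was expressed. The part of these differences in the values of the ER genes was not tested.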

How the data were processed

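Total RNA of the control and the Eomes-overexpressing OT-I culture was sequenced on an Illumina HiSeq instrument, 1 library each. The authors filtered reads with SOAPnuke, mapped them with HISAT and Bowtie2 to mm10 and computed expression with RSEM; versions are not given in the sources used here. The deposited values are FPKM per gene symbol with 2 decimals, which the authors' methods call RPKM, the name used here. The supplementary comparisons of the authors were not used. Symbols turned into dates were dropped, 20 from the control file and 19 from the other.

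Ratios and plots were made in Python 3.11.15 (scipy 1.17.1, pandas 2.3.3, numpy 2.4.6, matplotlib 3.10.9). Values not listed were set to 0.01. A gene counted as expressed from an RPKM of 1 upward in either library, and the threshold was 1.5-fold, without a test. Depth was the value at which genes under 4.5 reads came closest to whole reads. A depth of 19100000 reads, the mean of both libraries, gave approximate reads for the intervals. Lengths, positions and GC content came from GENCODE vM21, with 1 long transcript per gene (99.8% of expressed genes). Data were also simulated for this comparison (14588 genes), with counting error and a trend with GC content only. After centring on GC content, 200 of 200 genes changed 2-fold and 0 of 8015 unchanged genes with many reads passed 1.5-fold. Unchanged genes with few reads, ratios without centring and the spread between cultures were not covered.

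Named were the 37 genes, *Eomes*, of each further list the genes past 1.5-fold and the 2 with the highest mean, and cell type markers with an RPKM of at least 1 or at 0. *Trib3*, *Chac1*, *Ddit3*, *Eif2s1*, *Ppp1r15b*, *Ero1lb*, *Derl3* and further markers were named, and promoter motifs searched, after values were seen. A cell type marker is not reported here. The 37 genes and the lists were chosen with earlier results of these data known. Alternatives were a pseudocount of 0.1 or 1, a minimum RPKM of 5 or none, a log2 threshold of 0.32 or a 2-fold threshold, TPM, division by the median or a trimmed mean of log ratios as scaling, and centring on GC content.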

Additional observations from a re-analysis of the deposited data

How the results depend on the processing

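No gene of the 37 changed its side of 1.5-fold under another pseudocount, minimum or scaling, or after centring on GC content. With a log2 threshold of 0.32, 4 were higher and 1 lower. A trimmed mean of log ratios took 0.0022 off every log2 ratio and scaling to TPM took -0.032 off, and 27 to 31 genes lay above 0 under the scalings and centring. Centring took 20 genes outside their own counting interval and TPM took 3. The median of the lectin chaperones was 0.094 after centring and 0.21 with TPM, and that of the further translocation genes 0.015 after centring. In the further lists, the single higher folding gene was 0 genes with 1 added to both values, with a minimum RPKM of 5 or at 2-fold; past 0.32, the folding genes held 4 that were higher and 2 lower, with 1 and 1 in the oligosaccharyltransferase and in the translocation list. At 2-fold 1 gene of the PERK arm was lower. Expressed genes past the threshold were 118 higher and 285 lower with 1 added, 1061 and 1188 at 0.32, 69 and 175 at 2-fold, 95 and 213 with a minimum of 5, and 1356 and 2088 without a minimum.

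No paired analysis was possible because each condition has 1 library, and for the same reason leaving out a replicate was not run. The intervals assume equal depth, 1 transcript per gene and whole reads, and do not hold the spread between cultures, which these data do not give. *Wfs1*, *Dnajb9* and *Ern1* rest on the fewest reads.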

Other observations

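Chaperones outside the ER and the genes of transport from the ER were looked at after the values of the ER genes had been seen. The chaperonin TRiC, which folds actin and tubulin in the cytosol, had a median log2 ratio of 0.08 over 8 genes, from -0.02 to 0.21. Of the 8 genes, 7 were above 0, where 49.2% of expressed genes were. After centring on GC content the TRiC genes lay between -0.02 and 0.07. Mitochondrial chaperones and proteases had a median of 0.04 over 8 genes, with *Hspd1*, which encodes Hsp60, at 375 in control and 428 with Eomes. Genes of vesicle transport between the ER and the Golgi had a median of 0.08 over 19 genes. They ranged from *Kdelr1*, a receptor for chaperones that escape the ER (62.4 and 54.0, log2 ratio -0.21), to the coat gene *Sec24d* (8.30 and 11.35, 0.45), and none passed 1.5-fold.

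Of 14 cytosolic heat shock genes 13 were expressed, with a median log2 ratio of 0.09. *Hsp90aa1*, the inducible cytosolic Hsp90, was at 236 in control and 355 with Eomes (0.59, interval 0.56 to 0.62), just past 1.5-fold, and was at 0.44 and under 1.5-fold after centring on GC content. Its ER counterpart *Hsp90b1* had the largest log2 ratio of the 37 ER genes, 0.40. The constitutive *Hsp90ab1* was at 1989 and 2104 (0.08) and *Hspa8* at 2418 and 2693 (0.16). *Hspa1a* was at 1.0 and 0.51 (-0.97, -1.67 to -0.31), but it shares nearly identical sequence with *Hspa1b*, at 1.79 and 2.05, so that the split of reads between these genes is uncertain.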
